A study of Homo sapiens with 2 samples.

Results

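The endoplasmic reticulum (ER) chaperones and the genes of the unfolded protein response (UPR) are described here in D407, an adult human line labelled as retinal pigment epithelium (RPE). The group holds 32 genes, matched by symbol from a fixed list of names and not by a threshold on their levels, and all 32 are among the 37364 genes of the deposited table. The series has 2 libraries. The clusterin library came from D407 cells treated with clusterin, a secreted glycoprotein that binds misfolded proteins, and the control library came from D407 cells labelled as control. Both were cultured in serum-containing medium, and RNA was enriched on oligo(dT) beads. No dose or duration is stated for the clusterin treatment.

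With 1 library per condition, no difference below has a replicate check and no test between the conditions was made. D407 is a single cell line, and in bulk RNA fewer cells of a type and less RNA per cell cannot be told apart. Of 14 RPE visual cycle, pigment and identity markers, 9 were listed at 0 in both libraries, RPE65, RLBP1 and LRAT among them, and only BEST1 and MITF reached a mean of 1 RPKM. All 4 simple epithelial keratins searched for were abundant, with a summed level of 1003 RPKM in the clusterin library and 984 RPKM in the control library. Of 5 plasma cell and leukocyte markers, PTPRC, MZB1 and IGJ were listed at 0 in both libraries. SDC1, which epithelial cells also express, was measured, and the 5 summed to 26.7 RPKM in the clusterin library and 24.8 RPKM in the control library. The 3 endothelial markers summed to 0.975 and 1.01 RPKM and the 3 fibroblast markers to 0.943 and 1.18 RPKM. Levels are RPKM, reads scaled to transcript length and to the library total, and whole reads could be recovered from them. The totals were 33177091 reads for the clusterin library and 38236990 for the control library.

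Secreted and membrane proteins fold in the ER. Hsp70 and Hsp90 family chaperones, lectin chaperones that read N-glycans, and protein disulfide isomerases assist them, and proteins that fail to fold are returned to the cytosol for ER-associated degradation. When unfolded proteins accumulate, the membrane sensors IRE1 (gene ERN1), ATF6 and PERK start the UPR, which raises the transcription of many of these chaperones. RPE cells carry a large secretory and membrane turnover load, and clusterin itself matures in this compartment.

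Many UPR genes are known to carry an ER stress response element in the promoter, and its letters are shown here because they are a feature of the group that does not rest on the RNA levels. ERSE is CCAAT, 9 bases of any kind, then CCACG, and is bound by NF-Y and ATF6. ERSE-II is ATTGG, 1 base, then CCACG, and the UPRE searched for is TGACGTGG, a site for XBP1 and ATF6. Both strands were searched in RefSeq promoters (GRCh38.p14), from 250 bases before to 50 bases after each start site. Promoter entries were found for 29 of the 32 genes, with ERO1L under its current symbol ERO1A. DERL1, DERL3 and PDIA3 had none. ERSE was present in 7 of the 29 genes (24.1%), against 25 of all 27305 genes with a promoter entry (0.0916%). ERSE-II was present in HYOU1, SDF2L1 and HERPUD1, 3 of the 29 (10.3%), against 19 of all genes (0.0696%). UPRE was present in HYOU1 and DNAJC10 (6.90%), against 0.927% of all genes. The bare CCACG was present in 20 of the 29 (69.0%), against 42.1% of all genes. Because such elements were already known in UPR genes, these shares describe the group and are not an independent result. A match describes these letters and is not evidence of binding.

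The elements are printed 5′ to 3′ along the gene's strand with 5 bases on each side, and capitals mark the fixed letters of the motif. An ERSE or ERSE-II that reads in the other direction shows CGTGG first and ATTGG or CCAAT last, and an inverted UPRE reads CCACGTCA.
HSPA5 ERSE, chr9:125241386-125241414, minus strand: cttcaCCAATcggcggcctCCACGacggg
HSP90B1 ERSE, distal, chr12:103930211-103930239, plus strand: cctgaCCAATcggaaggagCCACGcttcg
HSP90B1 ERSE, proximal and inverted, chr12:103930316-103930344, plus strand: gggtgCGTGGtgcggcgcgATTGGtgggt
CALR ERSE, inverted, chr19:12938379-12938407, plus strand: ccacgCGTGGtcgaccatcATTGGtcggt
CANX ERSE, chr5:179698773-179698801, plus strand: cccggCCAATcttcacactCCACGaagaa
PDIA6 ERSE, chr2:10812848-10812876, minus strand: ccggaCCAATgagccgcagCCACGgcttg
XBP1 ERSE, chr22:28800598-28800626, minus strand: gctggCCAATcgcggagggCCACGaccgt
CRELD2 ERSE, inverted, chr22:49918549-49918577, plus strand: cctctCGTGGcgaactcggATTGGgccat
SDF2L1 ERSE-II, inverted, chr22:21642109-21642129, plus strand: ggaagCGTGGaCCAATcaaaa
HERPUD1 ERSE-II, chr16:56932020-56932040, plus strand: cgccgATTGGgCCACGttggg
HYOU1 ERSE-II, distal and inverted, chr11:119057375-119057395, minus strand: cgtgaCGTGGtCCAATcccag
HYOU1 ERSE-II, proximal and inverted, chr11:119057269-119057289, minus strand: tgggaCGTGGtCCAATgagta
DNAJC10 UPRE, inverted, chr2:182716127-182716144, plus strand: caccgCCACGTCAaccta

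The first base of the element lay 66 bases before the start site in HSPA5, 52 in XBP1, 194 and 89 in HSP90B1 and 225 in CALR. In HYOU1 the UPRE shares letters with the distal ERSE-II and is not printed separately. The single CANX element was found from 3 RefSeq start sites. The 200 bases before the HSPA5 start site (chr9:125241344-125241543, minus strand, GRCh38.p14) are shown because HSPA5 encodes BiP, the central chaperone of the response, and capitals again mark the ERSE letters.
HSPA5 upstream region: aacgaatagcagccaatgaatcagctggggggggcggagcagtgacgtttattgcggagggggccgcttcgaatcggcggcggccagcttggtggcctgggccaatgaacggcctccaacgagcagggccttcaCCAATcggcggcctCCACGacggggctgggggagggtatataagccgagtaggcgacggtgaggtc

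The ER folding machinery was abundant in both libraries and differed little between them. CALR, CANX, P4HB and HSP90B1 led the order of levels and made up 60.0% of the summed RPKM of the 32 genes in the clusterin library and 60.4% in the control library. Of the 32 genes, 8 lay at or above the 95th percentile of mean level among all genes above 0. At the other end DERL3 stayed under a mean of 1 RPKM, so 31 of the 32 genes were counted as measured. Together the 32 genes took 0.375% of the clusterin reads (95% interval 0.373 to 0.377) and 0.392% of the control reads (0.390 to 0.394). The ratio of these shares was 0.956. The median RPKM ratio over the 13244 measured genes of the table was 0.953, so the read share of the group lay close to the general offset between the libraries. The ratio of the summed RPKM of the 32 genes was 0.964. All intervals are exact Clopper-Pearson 95% intervals and cover counting error only, since each condition has 1 library. They treat reads as independent, and as reads are not independent molecules they may be too narrow even for that error.

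**Figure D1:**
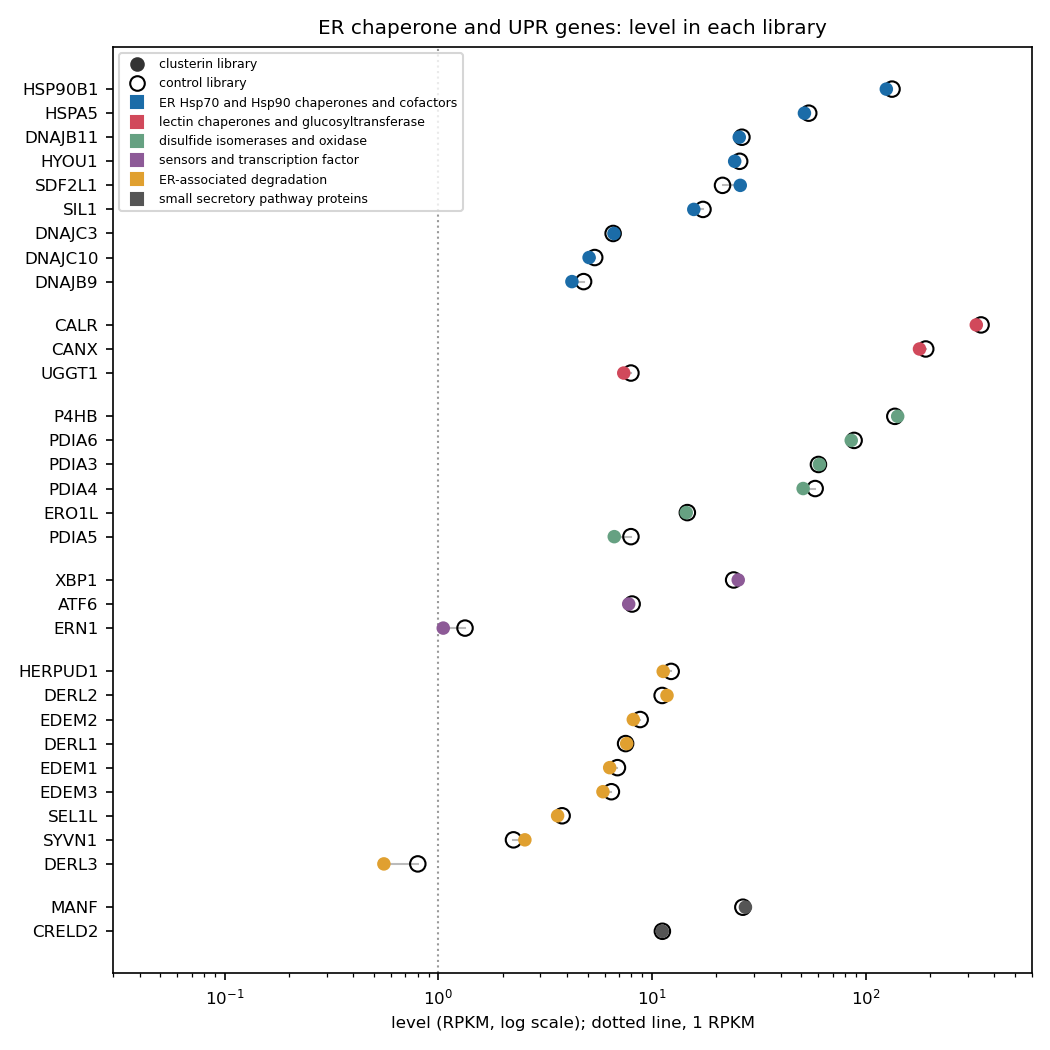
Level of each of the 32 genes in RPKM (log scale) in the clusterin library (filled) and the control library (open), grouped by role. CALR, at 329 and 347 RPKM, is at the high end and DERL3, at 0.556 and 0.801 RPKM, at the low end, and most pairs of points overlap.

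Differences are given as log2((clusterin RPKM + 1)/(control RPKM + 1)). The median over the 31 measured genes was -0.07, beside -0.06 over all 13244 measured genes. Values ran from -0.23 in PDIA5 to 0.26 in SDF2L1. No gene of the group was at least 2-fold apart on this scale, as were 29 of all measured genes (0.219%). Below 0 lay 22 of the 31 genes, beside 70.2% of all measured genes. With the control rescaled to a median ratio of 1, this split became 16 below and 15 above 0. The rescaling moved the median of all measured genes to 0, and 50% of them then lay below 0. SDF2L1 was the only gene at least 0.2 above the median of all genes, as were 6.70% of all measured genes, and none was at least 0.2 below it, against 5.86% of all.

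**Figure D2:**
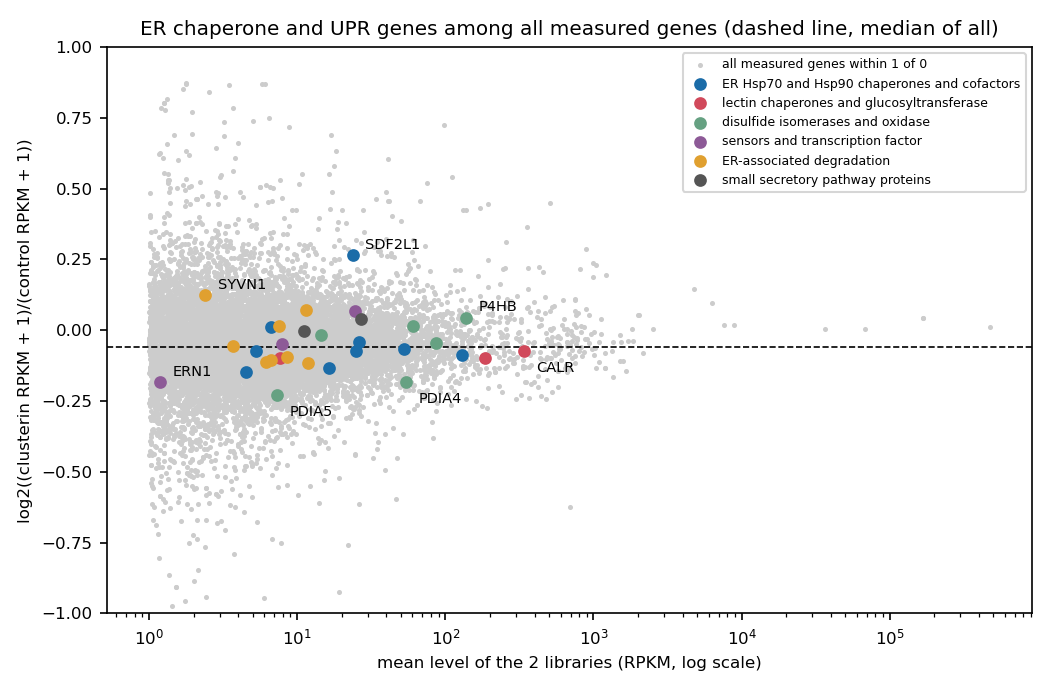
Mean level of the 2 libraries (RPKM, log scale) against log2((clusterin RPKM + 1)/(control RPKM + 1)) for all measured genes within 1 of 0 (grey) and for the 31 measured ER chaperone and UPR genes (coloured by role). The coloured points lie within the grey cloud around the dashed median of -0.06, and SDF2L1 at 0.26 is the highest of them.

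Among the Hsp70 and Hsp90 chaperones and their cofactors, 7 of 9 genes lay below 0, with a median of -0.07. HSPA5 (chromosome 9, 125234848 to 125241387, GRCh38), which encodes BiP, the Hsp70 of the ER, had 51.7 RPKM in the clusterin library and 54.1 RPKM in the control library, from 6803 and 8214 reads. The ratio of 0.955 (0.924 to 0.986) lay below 1 and on the median ratio of all genes. HSP90B1, which encodes GRP94, the Hsp90 of the ER, reached 125 and 133 RPKM, and its ratio was 0.940 (0.918 to 0.963). Both were lower in the clusterin library by about as much as the typical gene, and HSPA5 turned to a log2 ratio of 0.0029 with the control rescaled. A microRNA gene inside HSP90B1, MIR3652, was listed at 309 and 311 RPKM on the same strand, and the pseudogene HSP90B2P at 0.142 and 0.285 RPKM, so shared reads cannot be told apart.

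BiP binds and releases its clients as it hydrolyses ATP, J-domain proteins start the cycle and exchange factors end it. The exchange factors HYOU1, at 24.4 RPKM in the clusterin library and 25.7 RPKM in the control library, and SIL1, at 15.7 and 17.3 RPKM, had log2 ratios of -0.07 and -0.13. The counting interval lay below 1 for both, from 0.907 to 0.990 for HYOU1 and from 0.834 to 0.983 for SIL1, and included the median ratio of all genes. The log2 ratios of the J-domain genes lay on both sides of 0, and each interval included the median ratio of all genes. DNAJB9 (ERdj4), which assists the turnover of misfolded proteins and restrains IRE1, had 4.22 and 4.78 RPKM (log2 -0.15) from 355 and 464 reads, and its interval of 0.766 to 1.01 included 1. DNAJB11 (ERdj3), a cofactor that binds unfolded clients, stood at 25.6 and 26.3 RPKM, and DNAJC10 (ERdj5), which also reduces disulfides of degradation substrates, at 5.07 and 5.39 RPKM. DNAJC3 (P58IPK), also known as an inhibitor of eIF2α kinases, had 6.63 and 6.57 RPKM, the opposite order (log2 0.01). The intervals of these 3 genes included 1.

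SDF2L1 (chromosome 22, 21642253 to 21644299, GRCh38), a cofactor that forms a complex with ERdj3, was the gene of the group furthest above the rest. It stood at 25.9 RPKM in the clusterin library, from 750 reads, and at 21.4 RPKM in the control library, from 714 reads. The log2 ratio of 0.26 lay at percentile 97.8 of all measured genes, and the RPKM ratio was 1.21 (1.09 to 1.34). Its partner ERdj3 (DNAJB11) did not show this order, with a ratio of 0.972 (0.905 to 1.04). In the authors' deposited table SDF2L1 had a q of 0.00511. That q compares the 2 libraries and not the conditions.

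The lectin chaperones hold glycoproteins in the ER until folded, CANX as a membrane protein and CALR as its soluble relative, and UGGT1 adds back the glucose that sends a misfolded glycoprotein to them again. All 3 genes were lower in the clusterin library, and each interval lay below 1, though CALR turned to a log2 ratio of 0.0054 with quantile normalization. CALR (chromosome 19, 12938600 to 12944490, GRCh38), which also buffers calcium in the ER, had 329 RPKM in the clusterin library and 347 RPKM in the control library, a ratio of 0.9497 (0.932 to 0.967). CANX (chromosome 5, 179678646 to 179731641, GRCh38) had 178 and 191 RPKM, and its ratio was 0.935 from 29313 and 36134 reads. UGGT1 had 7.37 and 7.96 RPKM (log2 -0.10). Only the CANX interval, 0.921 to 0.949, lay below the median ratio of all genes, in the gene with the most reads of the group. CBY3, on the opposite strand and overlapping CANX, was listed at 2.53 and 3.26 RPKM, and the sources used here do not give the strand setting of the counting. Unnamed genes on the same strand as CALR and CANX, at 1.61 to 3.39 RPKM in the clusterin library and 1.198 to 2.51 RPKM in the control library, may share reads with them as well.

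The protein disulfide isomerases make and rearrange disulfide bonds, and ERO1L passes their electrons to oxygen. This family held both higher and lower genes. PDIA4 (ERp72; chromosome 7, 149003051 to 149028690, GRCh38) had 50.9 RPKM in the clusterin library and 58.0 RPKM in the control library, from 4989 and 6545 reads, and its ratio was 0.879 (0.847 to 0.912). PDIA5 (PDIR), an isomerase known to act on ATF6, had 6.65 and 7.96 RPKM, from 411 and 567 reads, a ratio of 0.835 (0.734 to 0.9502). Both intervals lay below the median ratio of all genes, 0.9526, that of PDIA5 only just.

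P4HB, which encodes PDI and is also a subunit of collagen prolyl hydroxylase, went the other way, at 141 RPKM in the clusterin library and 137 RPKM in the control library. Its ratio of 1.03 (1.01 to 1.06) lay above 1 and above the median ratio. PDIA3 (ERp57), the partner of the lectin chaperones, stood at 60.7 and 60.1 RPKM, and its interval of 0.977 to 1.05 included 1 and lay above the median ratio. The processed pseudogene PDIA3P was listed at 1.21 and 1.22 RPKM. PDIA6 (P5), which also restrains IRE1, stood at 85.5 and 88.2 RPKM, and ERO1L at 14.5 and 14.6 RPKM, with log2 ratios of -0.04 and -0.02. The median of the 6 genes was -0.03. ATP6V1C2, which overlaps PDIA6 on the opposite strand, was listed at 28.0 and 27.7 RPKM.

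Of the sensors, ERN1 (IRE1), a kinase and endonuclease that splices XBP1 mRNA, had the lowest level of the measured genes of the group. It stood at 1.05 RPKM in the clusterin library and 1.33 RPKM in the control library, from 140 and 204 reads. Its ratio of 0.791 was the lowest of the measured genes of the group without a pseudocount. The wide interval of 0.633 to 0.986 included the median ratio of all genes. ATF6, cut in the Golgi to free a transcription factor, had 7.77 and 8.07 RPKM (log2 -0.05). XBP1, the transcription factor made from the spliced message, stood at 25.3 RPKM in the clusterin library and 24.1 RPKM in the control library, with a log2 ratio of 0.07. The XBP1 interval of 0.979 to 1.13 included 1 and lay above the median ratio of all genes. A level per gene does not tell spliced from unspliced XBP1.

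In ER-associated degradation, SYVN1 (HRD1) is the ubiquitin ligase and SEL1L its adaptor, EDEM1, EDEM2 and EDEM3 trim mannose from terminally misfolded glycoproteins, the derlins form part of the exit channel, and HERPUD1 is a stress-induced scaffold. The 8 measured genes had a median of -0.08, and 5 of them lay below 0. HERPUD1, at 11.3 RPKM in the clusterin library and 12.3 RPKM in the control library, EDEM1, at 6.33 and 6.89 RPKM, and EDEM3, at 5.89 and 6.45 RPKM, had log2 ratios of -0.11, -0.10 and -0.11. EDEM2 had 8.17 and 8.80 RPKM (log2 -0.10). All 3 EDEM genes were lower in the clusterin library, and the intervals of EDEM1 (0.854 to 0.990) and EDEM3 (0.848 to 0.983) lay below 1.

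SEL1L and SYVN1, which act as a complex, stood on opposite sides of 0, except with quantile normalization, where SEL1L turned to 0.0045. SEL1L stood at 3.61 RPKM in the clusterin library and 3.79 RPKM in the control library (log2 -0.06), and SYVN1 at 2.54 and 2.25 RPKM (log2 0.12, from 257 and 262 reads). Both intervals included 1, from 0.876 to 1.04 for SEL1L and from 0.948 to 1.35 for SYVN1. MRPL49, which overlaps SYVN1 on the opposite strand by 91 bases, was listed at 17.8 and 18.6 RPKM. DERL1 stood at 7.61 and 7.52 RPKM and DERL2 at 11.7 and 11.1 RPKM, and both intervals included 1. MIS12, which overlaps DERL2 on the opposite strand by 139 bases, was listed at 6.89 and 7.63 RPKM. DERL3, a derlin known from secretory cells, stood at 0.556 RPKM in the clusterin library and 0.801 RPKM in the control library, from 59 and 98 reads, a ratio of 0.694 (0.494 to 0.968). SMARCB1, on the opposite strand and overlapping DERL3 by 16 bases, was listed at 15.8 and 13.5 RPKM. No gene of this branch had an interval that lay off the median ratio of all genes.

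MANF, a small ER protein that binds BiP and is secreted under stress, stood at 27.3 RPKM in the clusterin library and 26.6 RPKM in the control library, with a log2 ratio of 0.04. CRELD2, an ER protein with isomerase-like motifs that is also a known UPR target, stood at 11.2 RPKM in both libraries. Its reads could not be fixed, with 583 to 1950 clusterin reads and 673 to 2251 control reads possible, and with the fewest the ratio was 0.998 (0.892 to 1.12).

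**Figure D3:**
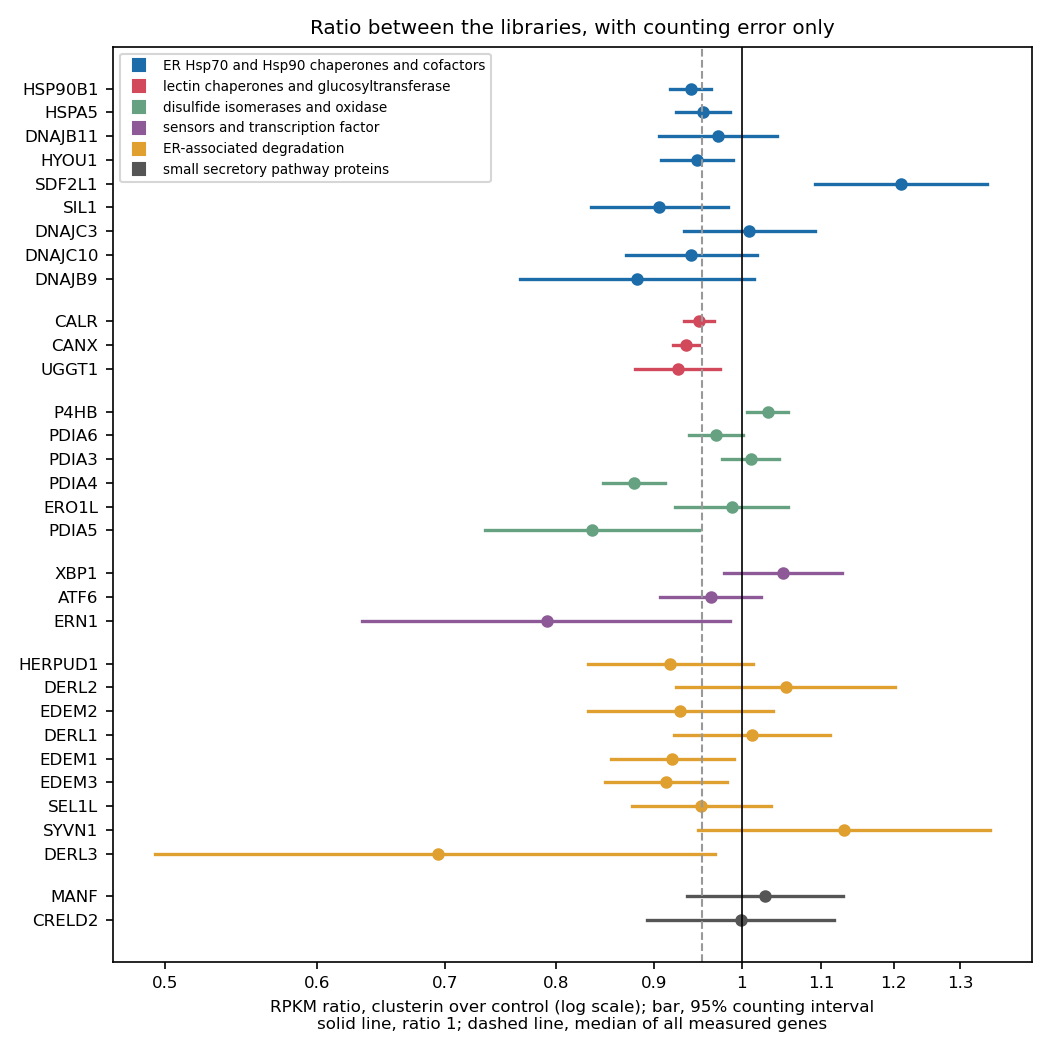
RPKM ratio, clusterin over control (log scale), of each of the 32 genes with its 95% counting interval. The solid line marks 1 and the dashed line 0.953, the median of all measured genes. SDF2L1 lies to the right at 1.21, PDIA4 and PDIA5 lie to the left at 0.879 and 0.835, and most other bars cross the dashed line.

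Read against the general offset, the counting interval lay below the median ratio for 3 of the 31 measured genes, CANX, PDIA4 and PDIA5, beside 10.6% of all measured genes with recovered reads. It lay above that ratio for 4, SDF2L1, P4HB, PDIA3 and XBP1, beside 11.7% of all. The share of the group was 9.68% on the low side and 12.9% on the high side, near the background in both directions. On the low side the upper ends for CANX (0.9495) and PDIA5 (0.9502) were close to the median ratio of 0.9526. That of PDIA4 was 0.912. In the authors' deposited table, q was under 0.05 for 7 genes that were lower with clusterin, CANX, PDIA4, CALR, HSP90B1, UGGT1, HSPA5 and PDIA5, out of 31, against 14.6% of all measured genes. It was under 0.05 for SDF2L1 alone on the high side, against 1.99% of all. The share of calls was higher among deeply read genes. Among genes with at least 1000 reads over both libraries, 6 of 26 genes of the group (23.1%) and 21.4% of all 7306 genes were lower with a q under 0.05, and 1 of 26 (3.85%) and 2.46% of all were higher. Of the 7 lower genes, CALR, HSP90B1, HSPA5 and UGGT1 had intervals that included the median ratio, so they did not stand below the typical gene beyond counting error.

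The genes with an ERSE or ERSE-II stood on both sides of 0. The 10 genes with such an element had a median log2 ratio of -0.07, from -0.11 in HERPUD1 to 0.26 in SDF2L1, and 8 of them lay below 0. The 19 measured genes with a promoter entry and no such element also had a median of -0.07, and 14 of them lay below 0. Of the 3 genes with an ERSE-II, SDF2L1 was higher, at 1.21 times the control level, while HYOU1 and HERPUD1 stood at 0.948 and 0.918 times. The 18 other measured genes of the table with either element had a median of -0.03, and 11 lay below 0.

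The PERK branch of the UPR, which lowers translation and raises ATF4, had a median of -0.11, beside -0.07 for the chaperone and UPR group, a difference that was not tested. Its 15 listed genes were all measured, 13 (86.7%) had negative log2 ratios, beside 70.2% of all measured genes, and 11 stood under the all-gene median. The share below 0 was also 86.7% for the oligosaccharyltransferase and glucosidase genes described below, and 85.7% for other J proteins and BiP partners. In the remaining lists of the secretory pathway it ran from 60% to 80%. EIF2AK3 (PERK) stood at 6.28 RPKM in the clusterin library and 6.99 RPKM in the control library (log2 -0.13), and ATF4 at 146 and 163 RPKM, where the ratio was 0.898 (0.874 to 0.922). DDIT3 (CHOP), a target of ATF4 linked to cell death, had 5.42 and 7.33 RPKM, and its ratio was 0.740 (0.620 to 0.882). ATF3 was the lowest of the branch, at 0.805 and 1.58 RPKM from only 68 and 154 reads, a ratio of 0.509 (0.377 to 0.681). CEBPB was the highest, at 56.9 and 53.8 RPKM. PPP1R15A (GADD34), which reverses the translational block, stood at 9.14 and 9.45 RPKM, with an interval that included 1. Several listed genes of the branch that are not named here also had intervals that included 1. Counting intervals lay below the median ratio for 4 of the 15 genes (26.7%, beside 10.6% of all genes) and above it for 1 (6.67%, beside 11.7% of all). For 1 of these 4 the upper end, 0.95236, was only just below the median ratio of 0.95259. Among the translocon, signal recognition and signal peptidase genes, 23.8% of intervals lay below the median ratio and 19.0% above it. In the remaining lists the share below it ran from 0% to 20%. The shares over all genes were not matched for read depth.

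The other lists of the secretory pathway had medians between -0.08 and -0.02, and no measured gene among the 130 of all 9 lists was 2-fold apart. In the ATF6 and CREB3 family with its proteases, CREB3L4 was lowest (log2 -0.35, 3.74 RPKM in the clusterin library and 5.05 RPKM in the control library) and the protease gene MBTPS2 highest (0.07). ATF6B, the paralog of ATF6, was listed at 0 in both libraries. Among partners of IRE1, the apoptosis effectors BAX (-0.18) and BAK1 (0.02) marked the ends. The 21 translocon, signal recognition and signal peptidase genes had a median of -0.08, with 16 below 0, and the signal peptidase genes SPCS2 (-0.24) and SPCS1 (0.05) were their lowest and highest. The 15 measured oligosaccharyltransferase and glucosidase genes also had a median of -0.08 and ran from PRKCSH (-0.13), the glucosidase II beta subunit, to OST4 (0.05).

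The 20 measured other disulfide and prolyl isomerases had a median of -0.05, from TMX4 (-0.18) to FKBP11 (0.19, from 86 clusterin and 81 control reads). The 24 genes listed under other degradation had a median of -0.05, from TRAM2 (-0.27) to HERPUD2 (0.18). TRAM2 is a membrane protein linked to the translocon, and the next lowest gene of that list stood at -0.21. Those of the 7 other J proteins and BiP partners ran from DNAJC25 (-0.14) to CNPY4 (0.03). In ER retrieval and calcium handling, KDELR1, a receptor that returns chaperones with a retrieval signal, stood at 20.9 RPKM in the clusterin library and 25.9 RPKM in the control library, a ratio of 0.807 (0.746 to 0.872), and SDF4, a calcium-binding protein of the Golgi, at 27.0 and 23.9 RPKM. Over all 9 lists the median was -0.07, and 100 of 130 genes (76.9%) lay below 0, beside 70.2% of all measured genes.

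**Figure D4:**
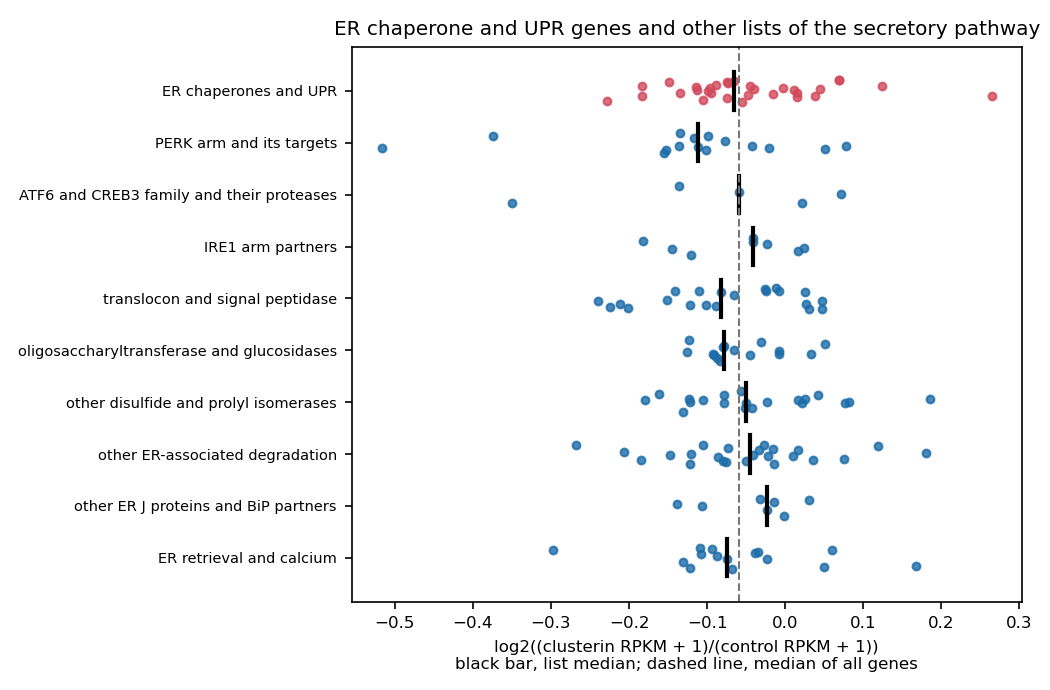
The log2((clusterin RPKM + 1)/(control RPKM + 1)) of each measured gene in the ER chaperone and UPR group (red) and in 9 other lists of the secretory pathway (blue); a black bar marks each list's median and the dashed line the median of all genes, -0.06. The PERK list has the lowest median, -0.11, and its ATF3 and DDIT3 lie furthest to the left.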

How the data were processed

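The authors deposited RPKM levels for the clusterin and control libraries. Beside them, per the file headers, stand a log2 ratio, a p-value and a q-value. The headers state no unit for the levels. It was inferred here: in 484 of 527 small RNA genes above 0, both levels times gene length came to whole reads within 0.02 at 1 total per library. Bowtie, TopHat, Cuffdiff and build hg19 are named in the submitters' processing notes, without versions. The listed starts lie within 2000 bp of RefSeq on GRCh38 for 31 of the 32 genes (not ERN1), so coordinates are those of GRCh38.

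In 476 of these small RNA genes the deposited p-value matched, within 2%, a two-sided Audic-Claverie p of the reads. Elsewhere the transcript length was sought that made both levels whole and matched that p, with a wider margin for very small p. Reads were obtained for 99.8% of 20642 genes above 0. For 5 of the 32 genes several lengths passed, and the fewest reads were used. In the other lists and the shares over all genes, the reads with the closest match to the p-value were kept instead. These settings, the comparison with the median ratio and the 1000-read subset were chosen after seeing the data.

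Differences are log2((clusterin RPKM + 1)/(control RPKM + 1)), over genes averaging 1 RPKM or more, a scale that understates the fold of low genes. A 0 can be a failed estimate, so such genes are only said to be listed at 0. All 32 genes are named, and in each other list the highest and lowest, with EIF2AK3, ATF4, DDIT3, PPP1R15A and ATF6B to be named where measured. The genes, lists and rules were chosen with earlier results of these data known. Python 3.11.15, pandas 2.3.3, numpy 2.4.6 and scipy 1.17.1 were used. Protein sequences were not used here.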

Additional observations from a re-analysis of the deposited data

How the results depend on the processing

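No paired analysis was possible because each condition has 1 library. No gene of the group was 2-fold apart under any of the 6 alternatives tried for pseudocount, filter and scaling. The median over the group moved to -0.00022 with the control rescaled to a median ratio of 1, where the median of all genes is 0 by construction. With a pseudocount of 0.1 RPKM, 3 genes in place of 1 lay at least 0.2 from the median of all genes. With q under 0.01 in place of 0.05 in the authors' deposited table, 5 genes in place of 8 were called, and with q under 0.05 and at least 1.2-fold apart, 1 was. The log2 ratio changed from negative to positive for 6 of 31 genes with the rescaled control (HSPA5, at 0.0029, DNAJB11, PDIA6, ERO1L, ATF6 and CRELD2) and for 6 with quantile normalization (CALR, at 0.0054, DNAJB11, ERO1L, ATF6, SEL1L and CRELD2), to at most 0.06 and 0.05. No sign changed with a pseudocount of 0.1 or 5 RPKM. With the rescaled control, 8 genes besides HSPA5 moved by more than their counting error, among them PDIA6 to 0.02, P4HB to 0.11, PDIA3 to 0.08 and HSP90B1 to -0.02. Rescaling raised the log2 ratio of every measured gene of the group. Those that passed their counting error were the genes with the most reads, whose intervals are narrow. ERN1 and DERL3 are limited by depth, with 344 and 157 reads over both libraries.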
